A study of Mus musculus with 4 samples.

Results

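The genes described here are 35 genes of glycolysis and of the cellular response to low oxygen, chosen by name: subunits and regulators of the hypoxia-inducible factor HIF, glucose and lactate transporters, the glycolytic enzymes, the entry enzymes of the pentose phosphate pathway, and hypoxia-inducible genes. They were found among 24235 genes obtained by summing the deposited transcript values per symbol. Of the 35, 32 reached 1 FPKM (fragments normalised for transcript length and library depth) in at least 1 library, as did 10680 genes in all. Gapdh, Eno1 and Adm stayed below 1 FPKM in every library.

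Messenger RNA came from 4 libraries of macrophages grown with M-CSF, the macrophage growth factor, out of C57BL/6 marrow, the mice being 7 weeks old. Group labels were Sema6D-/- with LPS, Sema6D-/- without LPS, WT (wild type) with LPS and WT without LPS, and each had 1 library. LPS, the lipopolysaccharide of bacterial cell walls, was given at 100 ng/ml for 4 h. The treatment text of all samples mentions LPS, so the absence of LPS was read from the titles, and the deleted part of Sema6d, a membrane-bound semaphorin gene, is not named in the labels.

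Replicate spread could not be measured and no test was made. A gene was called higher or lower when log2((FPKM + 1)/(FPKM + 1)) passed 1 in size, a 2-fold difference. Where an interval stands in square brackets, the log2 ratio was computed without the added 1, and the interval is a 95% exact binomial interval on estimated fragments. It covers counting error only, not the variation between cultures or mice.

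The targeted gene did not follow its label. Sema6d measured 0.592 FPKM with LPS and 0.563 without LPS in the libraries labelled Sema6D-/-, against 0.219 and 0.304 FPKM in WT. The genotypes also differed in sex-linked RNA: Xist measured 0.0306 and 0.0333 FPKM in the libraries labelled Sema6D-/-, against 21.4 and 22.3 FPKM in WT, and Ddx3y, on the Y chromosome, 16.6 and 13.2 against 0 and 0.00729 FPKM. Its part in the genotype ratios was not tested. All 8 macrophage markers were measured. With LPS, Mertk was higher (1.97) and Itgam lower (-1.02) in the library labelled Sema6D-/- than in WT, and without LPS 0 of the 8 passed 2-fold. Each of 6 LPS-response markers passed 2-fold upward with LPS in both genotypes. Between genotypes, 4 of these 6 were higher with LPS in the library labelled Sema6D-/- (Tnf, Il6, Il1b and Nos2) and 3 without LPS (Cxcl10 at 3.09, Il1b at 1.61 and Acod1 at 1.44). The part of these differences in the members' genotype ratios was not tested. Markers of neutrophils and their precursors summed to 364 and 236 FPKM with and without LPS in the libraries labelled Sema6D-/-, against 1276 and 834 FPKM in WT. Most of each sum was S100a8 and S100a9. With LPS, Camp and Retnlg had genotype ratios of only -0.12 and 0.15. Of the 8 of these 9 markers that were measured, 6 were lower with LPS and 5 without LPS in the libraries labelled Sema6D-/-, and Ly6g was below 1 FPKM in every library. Markers of B cells summed to 0.707 and 3.15 FPKM, against 7.21 and 12.5 FPKM in WT, almost all of it Cd79b. Erythroid and mast cell markers were below 1 FPKM throughout. In bulk RNA, fewer cells of a type and less RNA per cell cannot be told apart.

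Glycolysis splits glucose into pyruvate in the cytosol. Its pace is set largely at hexokinase, which traps glucose in the cell, at phosphofructokinase, and at pyruvate kinase, while lactate dehydrogenase and lactate export let it run without oxygen. HIF is a pair of an oxygen-labile alpha subunit, encoded by Hif1a or Epas1, and the stable partner Arnt. With oxygen present, prolyl hydroxylases of the Egln family mark the alpha subunit for destruction by the Vhl ubiquitin ligase. Without oxygen, HIF binds DNA and activates genes of glycolysis, vessel growth and matrix formation. In macrophages LPS is known to raise Hif1a RNA also in the presence of oxygen, and activated macrophages are known for a shift towards glycolysis.

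The members covered a wide range of levels, and FPKM, being per length, allows genes to be compared. Aldoa, the aldolase that cleaves the doubly phosphorylated sugar, was the highest in every library, at 963 and 847 FPKM with and without LPS in the libraries labelled Sema6D-/- and 859 and 792 FPKM in WT. Pkm, the pyruvate kinase, followed at 564 and 528 FPKM in the libraries labelled Sema6D-/- and 547 and 526 FPKM in WT. Ldha, the lactate dehydrogenase subunit, measured 478 and 373 FPKM, against 382 and 350 FPKM in WT. Pgd, the second dehydrogenase of the pentose phosphate pathway, measured 460 and 441 FPKM, against 393 and 349 FPKM in WT. Each of these abundant enzymes differed less between the 4 libraries than Hif1a, Epas1, Egln3, Pfkp, Pfkfb3 and Pfkfb4 did.

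**Figure D1:**
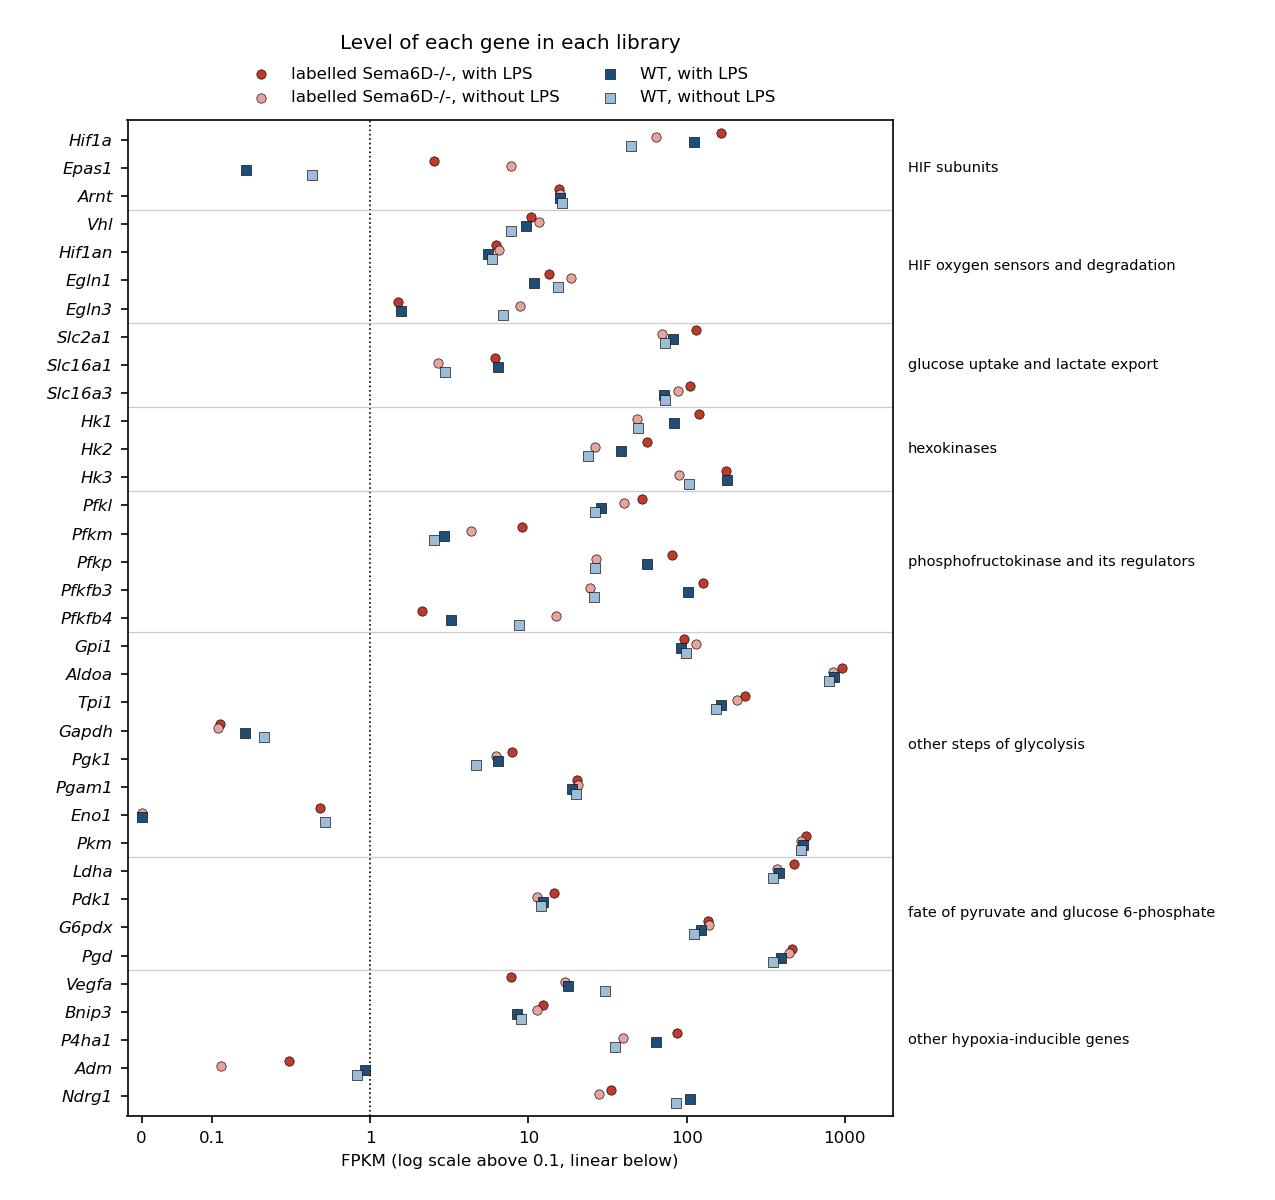
FPKM of the 35 genes in each of the 4 libraries, grouped by role, on an axis that is logarithmic above 0.1 and linear below; the dotted line marks 1 FPKM and each point is 1 library. Aldoa lies highest at 792 to 963 FPKM, and Gapdh, Eno1 and Adm lie left of the line in every library.

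Of the HIF subunits, Hif1a was higher with LPS in both genotypes. It measured 165 FPKM with LPS and 64.3 without in the libraries labelled Sema6D-/-, and 112 and 44.5 FPKM in WT. The log2 ratios were 1.34 (2.54-fold) in the libraries labelled Sema6D-/- and 1.31 (2.48-fold) in WT. Taking its highest transcript alone gave 1.48 and 0.99, the second just under 2-fold. Between genotypes Hif1a had ratios of 0.56 with LPS and 0.52 without, below the 2-fold rule. Arnt, its partner, stayed between 15.6 and 16.4 FPKM in all 4 libraries. Epas1, the other alpha subunit, was the lowest of the 3 and differed most by genotype. It measured 2.53 and 7.73 FPKM with and without LPS in the libraries labelled Sema6D-/-, against 0.163 and 0.427 FPKM in WT, on an estimated 221 and 910 fragments against 17 and 69. Its share of the summed alpha subunit FPKM was 1.5% and 10.7% in the libraries labelled Sema6D-/- and 0.1% and 1.0% in WT.

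Among the genes that restrain HIF, Egln3 stood out as lower with LPS. Egln3, a prolyl hydroxylase that is itself a HIF target, measured 1.51 FPKM with LPS and 8.80 without in the libraries labelled Sema6D-/-, and 1.56 and 6.94 FPKM in WT. The log2 ratios were -1.97 and -1.63 in the libraries labelled Sema6D-/- and in WT, or -2.55 [-2.96, -2.16] and -2.16 [-2.52, -1.81] without the added 1. Egln1, the main oxygen sensor of the family, had smaller ratios of -0.42 and -0.46, at 13.5 and 18.5 FPKM against 10.9 and 15.4 FPKM in WT. Egln3 therefore made up 10.03% and 32.3% of the summed FPKM of the pair with and without LPS in the libraries labelled Sema6D-/-, and 12.5% and 31.1% in WT. These shares leave out Egln2, a paralogue outside the members that was more abundant than either. Egln2 measured 32.8 and 28.7 FPKM with and without LPS in the libraries labelled Sema6D-/-, against 41.8 and 35.9 FPKM in WT. Hif1an, an asparagine hydroxylase that blocks HIF activity, stayed between 5.54 and 6.55 FPKM. Vhl measured 10.4 and 11.7 FPKM in the libraries labelled Sema6D-/-, against 9.63 and 7.77 FPKM in WT, with LPS ratios of -0.15 and 0.28 that were both far below 2-fold.

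**Figure D2:**
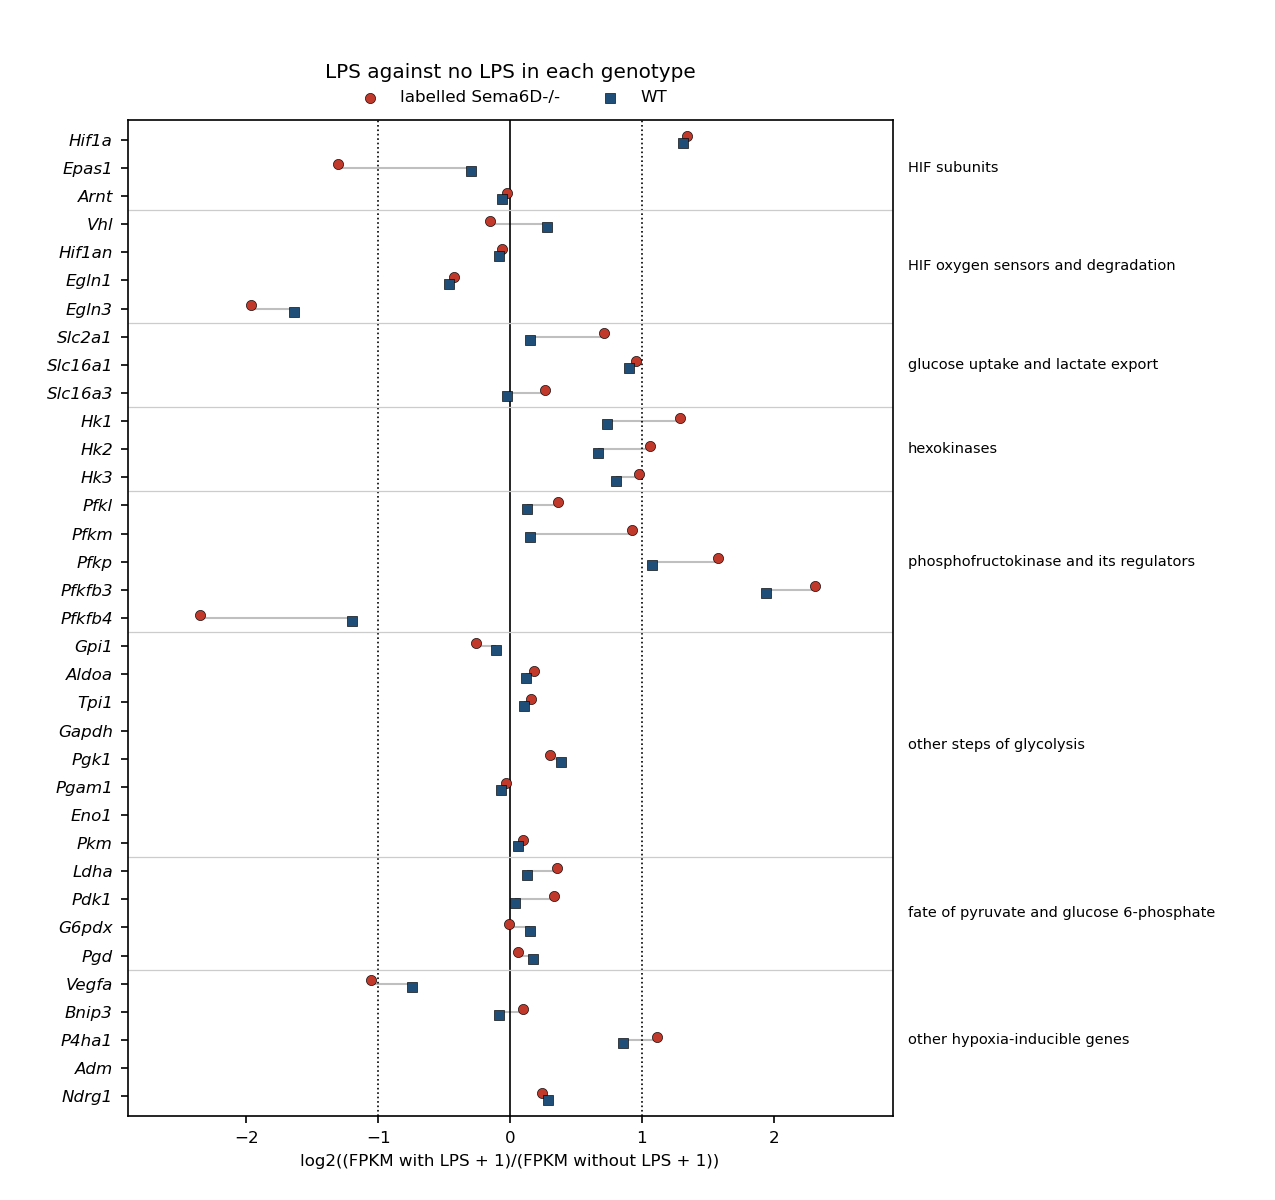
Log2 ratio of LPS to no LPS for the 32 measured genes, in the libraries labelled Sema6D-/- (circles) and in WT (squares), grouped by role; dotted lines mark 2-fold and grey bars join the genotypes. Pfkfb3 lies farthest right at 2.32 and 1.94, Pfkfb4 and Egln3 lie left of the lower line in both genotypes, and the 6 measured other steps of glycolysis lie between -0.25 and 0.39.

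Of the 3 hexokinases, Hk1 and Hk2 passed 2-fold upward with LPS in the libraries labelled Sema6D-/- and 0 of 3 did in WT. Of all genes tested, 14.0% and 10.7% passed upward. All 3 hexokinases had positive ratios in both genotypes, and for 0 of 3 the LPS responses differed past 2-fold. Hk1, the broadly expressed hexokinase, measured 120 and 48.3 FPKM with and without LPS in the libraries labelled Sema6D-/-, and 82.9 and 49.3 FPKM in WT. Hk2, the inducible hexokinase, measured 56.0 and 26.2 FPKM, against 38.3 and 23.8 FPKM in WT. Hk3, a hexokinase of myeloid cells, was the most abundant of the 3 at 177 and 89.1 FPKM, against 181 and 103 FPKM in WT. Their log2 ratios for LPS were 1.29, 1.06 and 0.98 in the libraries labelled Sema6D-/- and 0.74, 0.67 and 0.80 in WT. Hk3 held 50.1% and 54.4% of the summed hexokinase FPKM in the libraries labelled Sema6D-/- and 59.8% and 58.6% in WT.

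Phosphofructokinase showed a change of make-up with LPS. Pfkp, the platelet-type subunit, measured 81.2 and 26.6 FPKM with and without LPS in the libraries labelled Sema6D-/-, and 56.5 and 26.3 FPKM in WT, with log2 ratios of 1.58 and 1.08. Pfkl, the liver-type subunit, measured 52.4 and 40.4 FPKM, against 28.9 and 26.3 FPKM in WT, with ratios of 0.37 and 0.13. Pfkm, the muscle-type subunit, was low, at 9.11 and 4.32 FPKM against 2.93 and 2.54 FPKM in WT. Pfkp held 56.9% of the summed FPKM with LPS and 37.3% without in the libraries labelled Sema6D-/-, and 64.0% and 47.7% in WT, so it was the leading subunit in both LPS libraries. Without LPS the leading place was held by Pfkl in the library labelled Sema6D-/- (56.7%), while in WT the 2 subunits had equal shares of 47.7%.

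The regulators of phosphofructokinase moved in opposite directions. Pfkfb3, a bifunctional enzyme with high kinase activity that makes the sugar bisphosphate activating phosphofructokinase, measured 127 FPKM with LPS and 24.7 without in the libraries labelled Sema6D-/-, and 102 and 25.9 FPKM in WT. Its log2 ratios of 2.32 (4.97-fold) and 1.94 (3.83-fold) were the highest of the 32 measured members in each genotype. Pfkfb4, a paralogue known as a HIF target, measured 2.11 and 14.9 FPKM in the libraries labelled Sema6D-/-, and 3.26 and 8.75 FPKM in WT, with ratios of -2.35 and -1.20. Pfkfb3 thus held 98.4% and 62.4% of their summed FPKM in the libraries labelled Sema6D-/-, and 96.9% and 74.8% in WT. The summed FPKM itself was 129 and 39.6, against 105 and 34.7 in WT.

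**Figure D3:**
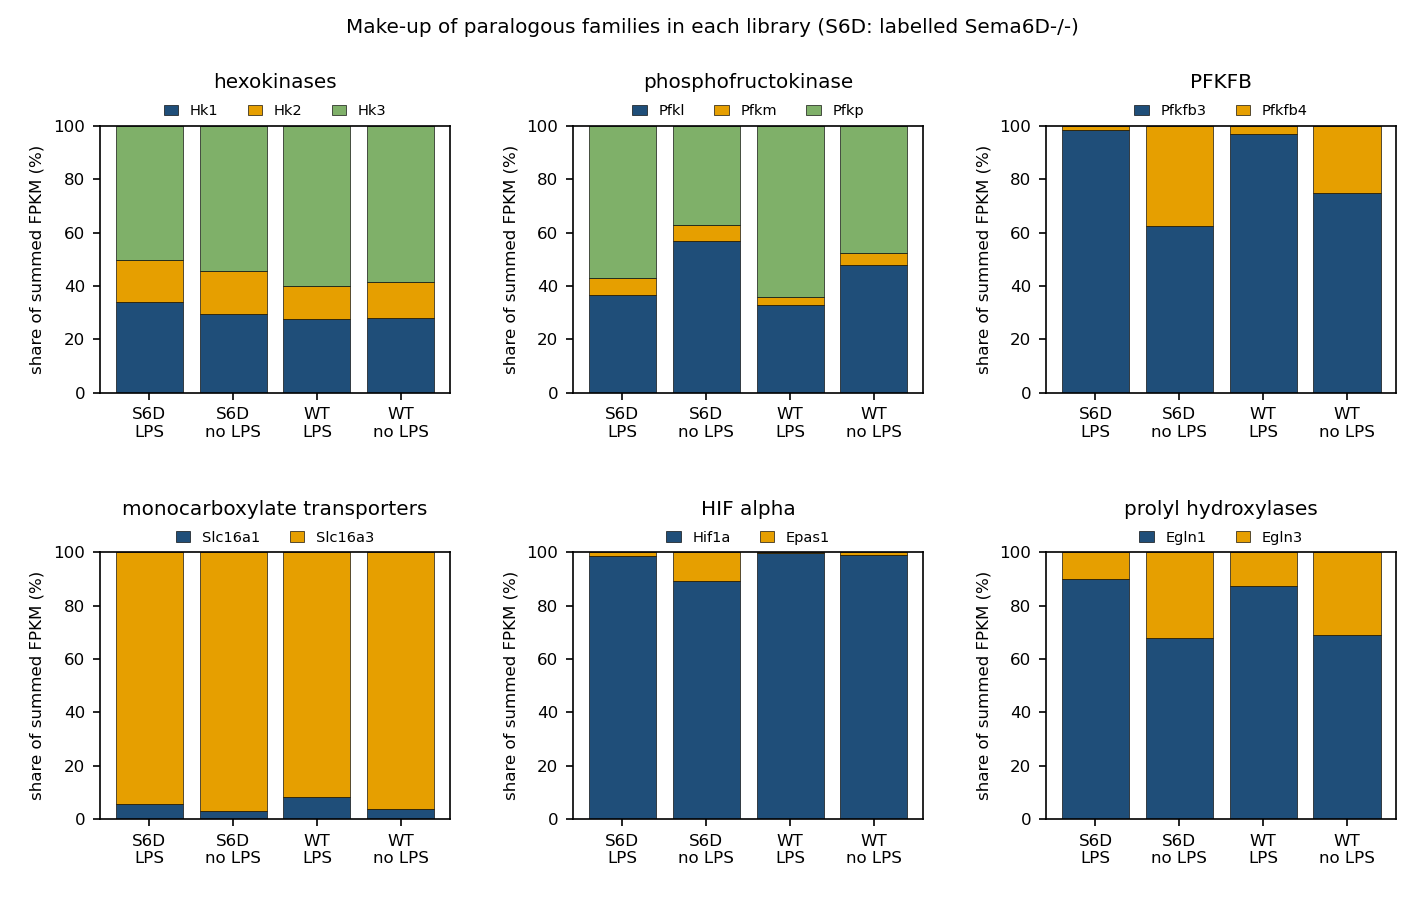
Share of each paralogue in the summed FPKM of its family (%), for 6 families in each library, with libraries labelled Sema6D-/- on the left and WT on the right of each panel. With LPS the shares of Pfkp, Pfkfb3 and Egln1 among these members are larger in both genotypes, while hexokinases and lactate transporters keep a similar make-up.

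None of the 3 transporter genes passed 2-fold with LPS, where 22.8% of all genes did in the libraries labelled Sema6D-/- and 15.6% in WT. Slc2a1, the glucose transporter GLUT1, measured 115 and 69.9 FPKM with and without LPS in the libraries labelled Sema6D-/-, and 81.7 and 73.4 FPKM in WT, with log2 ratios of 0.71 and 0.15. Slc16a1, a lactate and pyruvate transporter, measured 6.17 and 2.70 FPKM, against 6.45 and 2.98 FPKM in WT. Its ratios were 0.95 and 0.90. Without the added 1 they were 1.19 [0.97, 1.42] and 1.11 [0.92, 1.31], past 2-fold in both genotypes, though both intervals reached below 1. With the added 1 and each library rescaled to a common FPKM total, they were 0.35 and 0.48. Slc16a3, the main lactate exporter of glycolytic cells, was far more abundant at 105 and 87.6 FPKM, against 71.6 and 72.8 FPKM in WT, and had ratios of 0.26 and -0.02.

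Of the 6 measured genes of the other glycolytic steps (Gpi1, which acts between hexokinase and phosphofructokinase, and Aldoa, Tpi1, Pgk1, Pgam1 and Pkm, which act after it), 0 were past 2-fold with LPS in either genotype, and their ratios ran from -0.25 to 0.30 in the libraries labelled Sema6D-/- and from -0.11 to 0.39 in WT. Of all genes tested, 22.8% and 15.6% passed 2-fold in either direction. Tpi1, which interconverts the triose phosphates, measured 233 and 208 FPKM, against 165 and 154 FPKM in WT. Gpi1, the glucose phosphate isomerase, measured 96.2 and 115 FPKM, against 92.5 and 99.8 FPKM in WT. Of the Pkm signal, the transcript of the M2 form, the isoform known from proliferating and activated cells, held 86.5% and 82.6% in the libraries labelled Sema6D-/- and 82.3% and 78.6% in WT, as the authors' values divide it between the transcripts. Ldha had ratios of 0.36 and 0.13. Pdk1, the kinase that keeps pyruvate out of mitochondria, measured 14.5 and 11.3 FPKM, against 12.3 and 12.0 FPKM in WT. G6pdx, the first enzyme of the pentose phosphate pathway, measured 137 and 138 FPKM, against 123 and 111 FPKM in WT, and Pgd had LPS ratios of 0.06 and 0.17.

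Several glycolytic genes have sequence in common with other genes, and its part in their FPKM was not tested. In Gapdh, 82.5% of the 50-base windows of the mRNA occurred unchanged in annotated transcripts of 218 other genes. The share was 72.2% for Eno1, 68.0% for Pgk1 and 41.5% for Pgam1. Gapdh, an enzyme that every cell uses, was listed at 0.112 and 0.110 FPKM in the libraries labelled Sema6D-/- and 0.162 and 0.212 FPKM in WT. Eno1, the enolase, was listed at 0.479 and 0 FPKM in the libraries labelled Sema6D-/- and at 0 and 0.515 FPKM in WT. Pgk1, which makes the first ATP of the pathway, measured 7.89 and 6.21 FPKM, against 6.40 and 4.67 FPKM in WT, and Pgam1, the next enzyme, 18.9 to 20.7 FPKM. These 4 were the lowest of the 8 enzymes from Gpi1 to Pkm and had the largest shared fractions of those 8. Pkm was next in shared fraction (34.4%) and measured 526 to 564 FPKM. How the authors' counting treated reads that match several genes is not given in the sources used here, so levels of these genes are uncertain. Adm had no shared window, and its level rested on 3 to 30 estimated fragments.

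**Figure D4:**
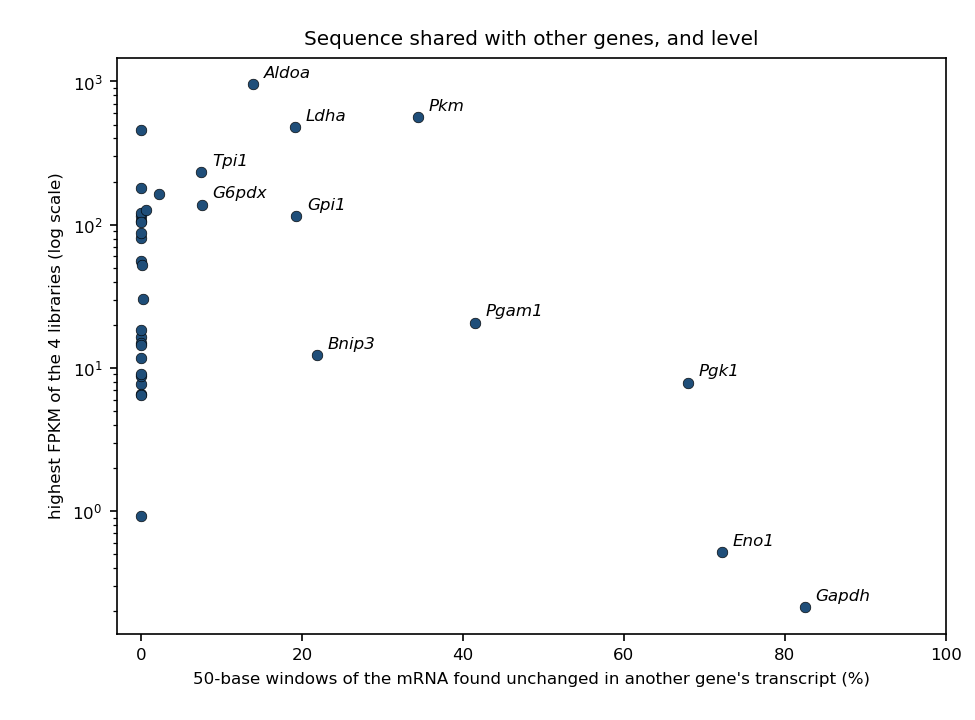
Share of 50-base mRNA windows found unchanged in a transcript of another gene (%) against the highest FPKM of the 4 libraries (log scale), with 1 point for each of the 35 genes and names where the share is 5% or more. Gapdh at 82.5% and Eno1 at 72.2% are the points farthest right and lie below 1 FPKM.

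Of 4 other measured hypoxia-inducible members, P4ha1 was higher and Vegfa lower with LPS in the libraries labelled Sema6D-/-, and 0 passed 2-fold in WT. Of all genes tested, 14.0% were higher and 8.81% lower in the libraries labelled Sema6D-/-, and 10.7% and 4.85% in WT. P4ha1, which hydroxylates collagen, measured 87.1 and 39.7 FPKM with and without LPS in the libraries labelled Sema6D-/-, and 64.1 and 35.01 FPKM in WT, with log2 ratios of 1.12 and 0.85. Vegfa, the growth factor of blood vessels, measured 7.74 and 17.1 FPKM, against 17.8 and 30.4 FPKM in WT, with ratios of -1.05 and -0.74. Bnip3, a mitophagy receptor, stayed between 8.44 and 12.3 FPKM. Ndrg1, a stress-responsive gene induced by hypoxia, had LPS ratios of only 0.24 and 0.29 but was lower in the libraries labelled Sema6D-/- in both states. Adm, a vasodilator peptide gene, measured 0.306 and 0.114 FPKM, against 0.924 and 0.824 FPKM in WT.

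The promoters of 4 members that moved with LPS are shown because 3 were higher (Hif1a, Hk2, P4ha1) and 1 lower (Egln3) in the libraries labelled Sema6D-/-, and all hold the core of the hypoxia response element. Each is the 250 bases before the annotated start (RefSeq, GRCm38.p6), 5′ to 3′ on the gene's strand. Capitals mark ACGTG or GCGTG on either strand, and a CACGTG counts on both.
Hif1a, chr12:73907617-73907866, plus strand: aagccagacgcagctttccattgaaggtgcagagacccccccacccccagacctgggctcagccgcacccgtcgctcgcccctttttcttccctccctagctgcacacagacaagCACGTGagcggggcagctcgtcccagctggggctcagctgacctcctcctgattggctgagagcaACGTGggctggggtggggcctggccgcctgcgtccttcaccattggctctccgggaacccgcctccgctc
Hk2, chr6:82774455-82774704, minus strand: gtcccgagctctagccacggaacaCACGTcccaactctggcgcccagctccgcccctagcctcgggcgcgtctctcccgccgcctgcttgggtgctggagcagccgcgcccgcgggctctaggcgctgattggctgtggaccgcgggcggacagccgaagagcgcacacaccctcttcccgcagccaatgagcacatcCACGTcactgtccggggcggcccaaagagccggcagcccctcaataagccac
P4ha1, chr10:59323046-59323295, plus strand: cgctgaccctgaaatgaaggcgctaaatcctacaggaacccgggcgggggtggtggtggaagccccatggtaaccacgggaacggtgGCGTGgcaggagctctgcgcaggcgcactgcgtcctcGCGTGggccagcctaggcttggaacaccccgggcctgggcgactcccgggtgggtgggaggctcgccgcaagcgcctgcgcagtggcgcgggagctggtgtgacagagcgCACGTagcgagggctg
Egln3, chr12:54203875-54204124, minus strand: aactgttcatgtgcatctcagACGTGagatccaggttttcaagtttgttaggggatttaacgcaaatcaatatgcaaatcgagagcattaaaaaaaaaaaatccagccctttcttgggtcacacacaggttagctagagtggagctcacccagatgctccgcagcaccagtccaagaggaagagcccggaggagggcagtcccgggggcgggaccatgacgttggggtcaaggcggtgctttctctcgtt
Of 47 such windows for 33 members in the RefSeq table, 36 (76.6%) held a core, against 38.6% of all 32851 windows and 56.4% of the 10880 windows of genes at 1 FPKM or more. Median GC content was 60.4% in the members' windows and 59.6% in those of genes at 1 FPKM or more. The 4 members with no core in any window were Vhl, Hif1an, Gpi1 and Tpi1. Windows with a core belonged to members that were higher with LPS, lower and neither. Such a match is a short string of letters and does not show binding.

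Counted together, 6 of 32 measured members (18.8%) passed 2-fold upward with LPS in the libraries labelled Sema6D-/-, where 14.0% of all 10398 tested genes did (22.8% in either direction). Hif1a, Hk1, Hk2, Pfkp, Pfkfb3 and P4ha1 were the 6. Another 4 of 32 (12.5%) were lower, against 8.81% of all genes, namely Epas1, Egln3, Pfkfb4 and Vegfa. In WT, 3 of 31 (9.7%) were higher, against 10.7% of all 10375 genes (15.6% in either direction), and these were Hif1a, Pfkp and Pfkfb3. Egln3 and Pfkfb4 were the 2 of 31 (6.5%) that were lower, against 4.85% of all genes. All 5 WT calls were also made in the libraries labelled Sema6D-/-, but this overlap was not counted for all genes. The shares of higher and of lower members were near those of all genes. The median log2 ratio of the members was 0.21 in the libraries labelled Sema6D-/- and 0.13 in WT, against 0.15 and 0.11 for 6110 well-expressed genes, those with at least 5 FPKM in all 4 libraries.

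The calls of higher genes depended on scaling. Rescaling each library to a common FPKM total moved the LPS medians of those 6110 genes by -0.71 in the libraries labelled Sema6D-/- and -0.51 in WT. Then 1 member was higher in each genotype, Pfkfb3 at 1.58 and 1.42, and 6 and 3 were lower, where 7.16% and 28.8% of all genes were higher and lower in the libraries labelled Sema6D-/- and 6.87% and 14.4% in WT. Egln1 and Gpi1 joined the lower members in the libraries labelled Sema6D-/-, and Vegfa in WT. Hif1a, Hk1, Hk2, Pfkp and P4ha1 kept positive ratios on this scale in both genotypes, from 0.33 to 0.84 and from 0.15 to 0.79. After centring on the median, 4 members were higher and 4 lower in the libraries labelled Sema6D-/-, where 12.0% and 11.9% of all genes were, and Hk2 (0.91) and P4ha1 (0.96) no longer passed. In WT 2 were higher and 2 lower, where 9.57% and 6.31% of all genes were, and Pfkp (0.96) no longer passed.

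Between the genotypes, Epas1 was higher and Ndrg1 lower in the libraries labelled Sema6D-/- in both states. Epas1 had log2 ratios of 1.60 with LPS and 2.61 without, or 3.96 [3.24, 4.76] and 4.18 [3.82, 4.55] without the added 1. Ndrg1 measured 33.5 and 28.1 FPKM in the libraries labelled Sema6D-/-, against 105 and 85.5 FPKM in WT. Its ratios were -1.62 and -1.57. With LPS, Pfkm was also higher (1.36, or 1.64 [1.36, 1.91] without the added 1) and Vegfa lower (-1.10). Without LPS these 2 had ratios of 0.59 and -0.80. Most neutrophil and precursor markers were lower in the libraries labelled Sema6D-/- in the same comparisons (6 of 8 measured with LPS and 5 without). Their sums, mostly S100a8 and S100a9, were 364 and 236 FPKM against 1276 and 834 FPKM in WT. Their part in the ratios of Ndrg1, Vegfa and the other members was not tested.

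In all, 2 of 32 measured members were higher and 2 lower with LPS, where 3.09% and 3.18% of all 10078 genes were (6.26% in either direction), and 1 higher and 1 lower without LPS, where 2.51% and 2.19% of 10322 genes were (4.70% in either direction). The median ratio of the members was 0.25 with LPS and 0.16 without, against 0.04 and 0.04 for all genes tested. Rescaling to a common total moved the median of the 6110 genes by -0.21 with LPS, from 0.06 to -0.15. The members' median was then 0.03, still above that of the 6110 genes. All genes were then higher in 1.87% and lower in 4.07%, and the members' calls remained the same 4. G6pdx and Pgk1 lie on the X chromosome; their genotype ratios were 0.15 and 0.26 with LPS and 0.32 and 0.35 without.

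**Figure D5:**
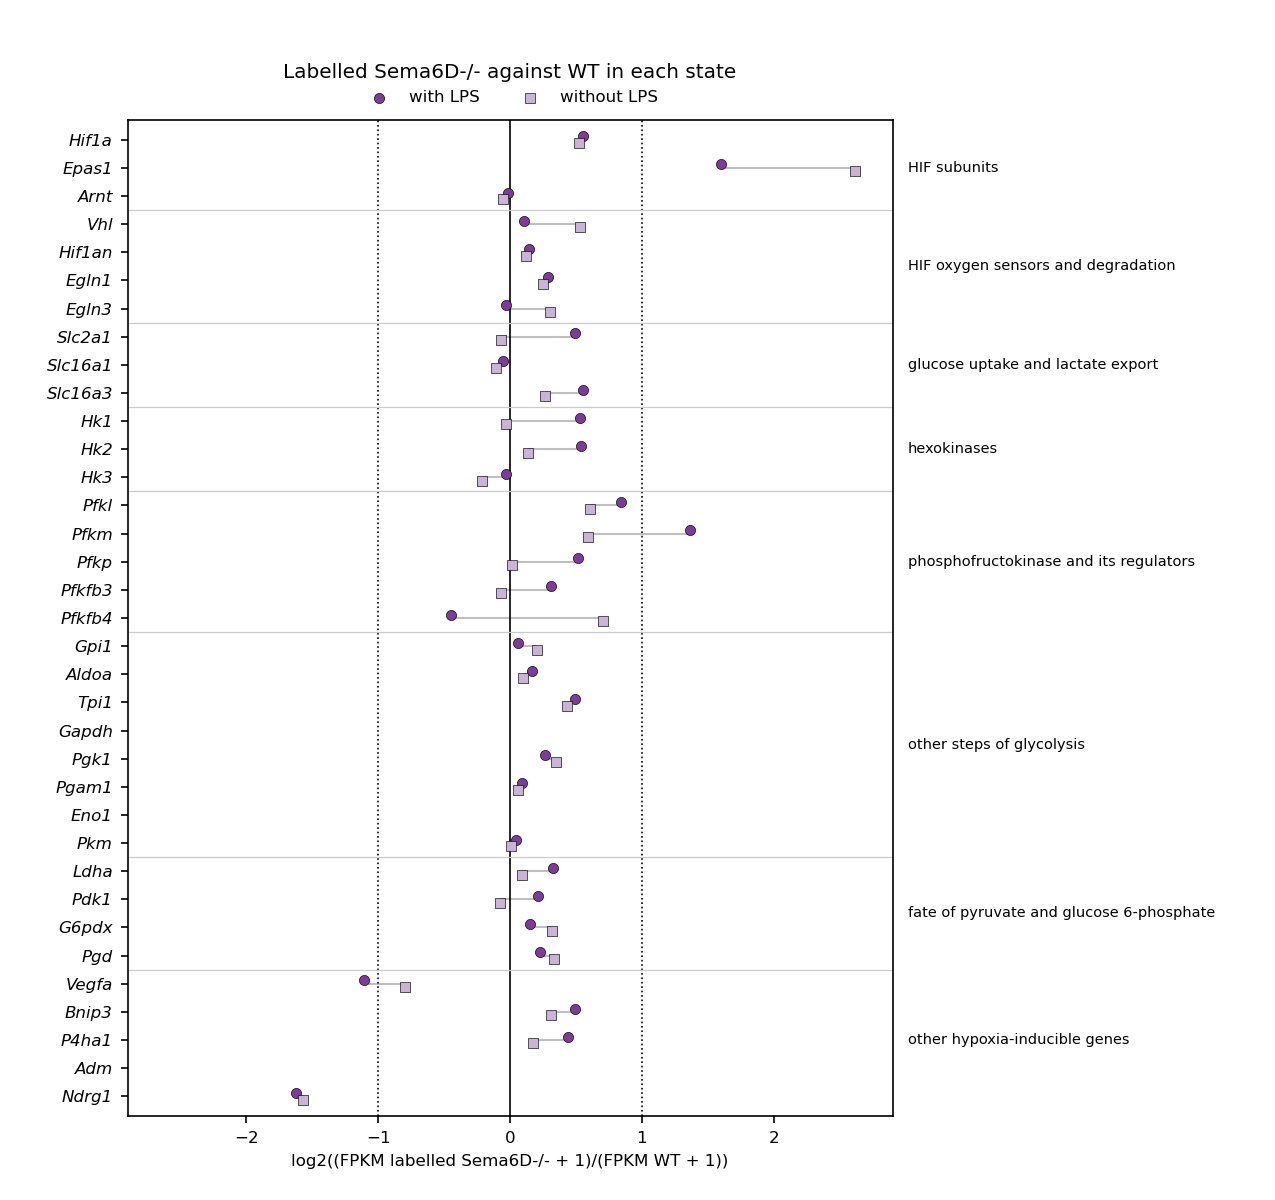
Genotype log2 ratio (labelled Sema6D-/- over WT) of the 32 measured genes, with LPS (circles) and without LPS (squares), grouped by role; dotted lines mark 2-fold and grey bars join the states. Epas1 at 1.60 and 2.61 lies right of the upper line and Ndrg1 at -1.62 and -1.57 left of the lower line in both states.

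Of the 32 measured members, 22 had a larger genotype ratio with LPS than without and 10 a smaller one. The share of all genes with a larger ratio was not counted. The members' median difference, with LPS minus without, was 0.05. It was -0.01 for all genes tested and 0.03 for the 6110 well-expressed genes. After rescaling to a common total the median difference was -0.17 for the members and -0.18 for the 6110 genes. Among the 22, Slc2a1, Hk1, Hk2, Pfkp and Pfkfb3 had genotype ratios below 2-fold in both states. Slc2a1 had genotype ratios of 0.49 with LPS and -0.07 without. The pairs were 0.53 and -0.03 for Hk1, 0.54 and 0.14 for Hk2, and 0.52 and 0.02 for Pfkp. Pfkfb3 had 0.31 and -0.07. After rescaling to a common total the ratios with LPS were 0.26 for Slc2a1, 0.30 for Hk1, 0.31 for Hk2, 0.29 for Pfkp and 0.08 for Pfkfb3. Hk3 and Slc16a1 were also among the 22, with ratios of -0.03 and -0.06 with LPS, and -0.21 and -0.11 without.

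The LPS responses themselves differed past 2-fold for Pfkfb4 and Epas1, both lower (libraries labelled Sema6D-/- minus WT). That is 2 of 32 members, with 1.25% of all 10680 genes, while 0 members were higher, with 1.83% of all genes (3.08% in either direction). Common-total rescaling gave 2.09% lower and 1.15% higher for all genes and left the members' 2 calls. Pfkfb4 had a difference of -1.16. Its responses without the added 1 were -2.82 [-3.11, -2.54] in the libraries labelled Sema6D-/- and -1.43 [-1.65, -1.21] in WT. Its level was higher in the library labelled Sema6D-/- without LPS (14.9 against 8.75 FPKM) and lower with LPS (2.11 against 3.26 FPKM). Epas1 had a difference of -1.01 that rested on the added 1, since its responses without it were -1.61 [-1.83, -1.40] and -1.39 [-2.25, -0.61]. Next in size was Pfkm at 0.77, with responses of 1.08 [0.84, 1.31] and 0.21 [-0.10, 0.52]. The responses share libraries with the genotype ratios, so these are not separate evidence.

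Genes around the pathway were counted from lists chosen by function. Of 17 measured isoenzymes and glucose transporters outside the members, 2 were higher and 2 lower with LPS in the libraries labelled Sema6D-/-, and 2 higher and 0 lower in WT. For all genes tested, 14.0% were higher and 8.81% lower in the libraries labelled Sema6D-/-, and 10.7% and 4.85% in WT, and the counts of this list were near those shares. Slc2a6, of the facilitative glucose transporter family, measured 521 and 101 FPKM with and without LPS, against 186 and 27.1 FPKM in WT. Its level was above that of Slc2a1 in both LPS libraries. Without LPS it was above Slc2a1 in the library labelled Sema6D-/- and below it in WT. Minpp1, a phosphatase that also acts on bisphosphoglycerate, measured 85.5 and 11.3 FPKM, against 54.8 and 9.83 FPKM in WT. Bpgm, which makes bisphosphoglycerate, had LPS ratios of -1.37 and -0.60, and Pfkfb2 -1.21 and -0.79.

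Of 15 measured genes of pyruvate handling, 1 was higher and 2 lower in the libraries labelled Sema6D-/- (14.0% and 8.81% of all genes), and 1 higher and 0 lower in WT (10.7% and 4.85%). Pdk3, a kinase of the same family as Pdk1, measured 41.3 and 8.74 FPKM, against 14.4 and 5.51 FPKM in WT, with ratios of 2.12 and 1.24, and Pdk2 had -1.66 and -0.67. Pdpr, a regulatory subunit of the opposing phosphatase, had -1.11 and -0.34. In the pentose phosphate pathway, 1 of 9 was higher and 2 lower in the libraries labelled Sema6D-/-, and 0 of 8 in WT either way, beside the same shares of all genes. Rpe, the ribulose phosphate epimerase, had ratios of 1.15 and 0.74, H6pd, its dehydrogenase in the endoplasmic reticulum, -1.25 and -0.69, and Shpk, the sedoheptulose kinase, -1.01 and -0.67.

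Of 15 measured HIF regulators outside the members, 2 were higher and 0 lower in the libraries labelled Sema6D-/- (14.0% and 8.81% of all genes), and 1 higher and 0 lower in WT (10.7% and 4.85%). Cited2, which competes with HIF for its coactivators, measured 333 and 44.1 FPKM, against 197 and 38.2 FPKM in WT. Cul2, the scaffold of the Vhl ligase, had ratios of 1.21 and 0.80. Of 33 further hypoxia-inducible genes, 7 were higher and 7 lower in the libraries labelled Sema6D-/- (14.0% and 8.81% of all genes), and 5 and 5 in WT (10.7% and 4.85%). Among those higher were Nos2, the inducible nitric oxide synthase (7.24 and 6.33), Edn1, endothelin (6.01 and 4.98), Il1b, an inflammatory cytokine (5.36 and 4.33), and the cystine transporter gene Slc7a11 (3.06 and 1.94). Among those lower was Cxcr4, a chemokine receptor (-4.41 and -2.55). Most of these also answer to inflammatory signals, as known from other work.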

How the data were processed

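The 4 deposited tables held FPKM values computed by the authors, 1 per RefSeq transcript and library (34487 transcripts). The submitters' processing notes name Cuffnorm 2.2.1, TopHat2 2.0.13, SAMtools 0.1.19, Bowtie2 2.2.3 and the build mm9. Their order, options, counting strand and the scaling between libraries are not given in the sources used here. Libraries were stranded mRNA preparations per the labels' protocols.

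Gene names came from the GRCm38.p6 RefSeq table for 34163 transcripts and from GENCODE vM21 for 187, and 137 were left out. Transcripts were summed per symbol, and ratios, filter (1 FPKM in a compared library) and 2-fold rule were as stated above. Depth was estimated from low values, which step by whole fragments: with GENCODE lengths, 73.1 to 74.5% of them lay within 0.1 of a whole number, against 20% by chance, which gave 17.2 to 23.4 M fragments per library. Some Vegfa transcripts had no length in GENCODE, so Vegfa has no interval. Groups were taken from the titles. The comparisons were LPS in each genotype, genotype in each state and the difference of responses. Members and lists were chosen with earlier results of these data known. All members are reported, and of each list at most 6 genes past 2-fold are named. A gene that this rule would name is not reported here. Ratios and intervals were tested on simulated data. Python 3.11.15, pandas 2.3.3 and scipy 1.17.1 were used.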

Additional observations from a re-analysis of the deposited data

How the results depend on the processing

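No paired analysis was possible because each group held 1 library, and no library could be left out. Of 90 recomputed counts of members past 2-fold, 75 were within 1.5 times the reported count, and of 138 recomputed ratios of called members 63 stayed within the counting interval, 75 moved beyond it or had none, and 0 changed sign. With 5 FPKM added in place of 1, 2 members were lower with LPS in the libraries labelled Sema6D-/- and 0 in WT, 0 were higher and 1 lower in the libraries labelled Sema6D-/- than in WT with LPS, and 0 had a lower response. With 0.1 FPKM added, 1 had a lower response (Pfkfb4). Without a low filter 1 had a higher response (Eno1, listed at 0 in 2 libraries). At a filter of 5 FPKM, 1 was higher by genotype with LPS (Pfkm). A common total left 1 member higher with LPS in each genotype. At a 1.5-fold rule, 10 and 8 members were higher with LPS in the libraries labelled Sema6D-/- and in WT, 4 were higher and 2 lower by genotype without LPS, and 1 had a higher response. Under these alternatives Pfkfb3 ratios for LPS ran from 1.58 to 2.44 in the libraries labelled Sema6D-/- and from 1.42 to 2.29 in WT, and those of Egln3 from -2.52 to -1.08 and from -2.09 to -0.86. Ndrg1 ran from -1.84 to -1.51 by genotype with LPS. Depth limits Epas1 in WT (17 fragments with LPS), Adm, Gapdh and Eno1.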

Other observations

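Transcript variants of some members were divided differently between libraries, as the authors' values assign them. Arnt had a near constant total, but the longer of its 2 listed variants (4325 bases) held 10.2% and 45.2% of the FPKM with and without LPS in the libraries labelled Sema6D-/-, and 28.5% and 19.9% in WT. The variants of Slc16a3 also differed: the variant of 4335 bases held 40.5% and 31.1% in the libraries labelled Sema6D-/-, against 58.1% and 41.6% in WT. Of the 8 Pfkfb3 variants, 3 carried nearly all the signal, and the variant of 4801 bases held 12.1% and 27.1% in the libraries labelled Sema6D-/-, against 13.9% and 35.7% in WT, a smaller share in both LPS libraries. Such shares rest on the reads that tell variants apart, whose number is not in the files, and no replicate checks them.

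Further genes of the hypoxia list passed 2-fold but fell outside the places given to named genes, and are given here with their values already seen. Zfp395 had LPS ratios of -2.94 in the libraries labelled Sema6D-/- and -2.67 in WT, Narf -2.26 and -1.54, Ankrd37 -1.51 and -1.58, and Angptl4 -2.03 and -2.49. P4ha2 had -1.042 and -0.555, and Mxi1 -1.025 and -0.864. Plod2, which hydroxylates lysine in collagen, had 1.68 and 0.58 (its level without LPS was 0.815 FPKM in the library labelled Sema6D-/-), and Ak4, an adenylate kinase of mitochondria, 1.13 and 0.95. Lox, a collagen cross-linking oxidase, had a genotype ratio of -1.67 with LPS and -1.67 without, close to those of Ndrg1. It measured 13.3 and 7.96 FPKM in the libraries labelled Sema6D-/-, against 44.5 and 27.4 FPKM in WT. Car9 had genotype ratios of -1.18 with LPS and -1.44 without, at 0 and 0 FPKM against 1.27 and 1.71 FPKM in WT.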
